A study of Homo sapiens with 24 samples.

Results

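Strong H3K4me3 regions that lie outside every annotated gene and far from every annotated transcription start were described in EndoC-βH3 cells, a line of human pancreatic beta-like cells. A region was a member if it was on an autosome, had a strong mean normalized H3K4me3 count, overlapped no GENCODE gene body of any type and lay more than 5 kb from every GENCODE transcription start site (TSS) of any type. The limit for a strong count was the upper quartile over all regions, 12.79, rounded up to 1 decimal. Of 97545 regions in the table, 95464 were autosomal, 23864 of these were strong by that limit, 3488 of the strong ones lay outside gene bodies, and 2717 also lay beyond 5 kb and were the members. They were 11.39% of the strong autosomal regions and held 6.795% of the signal of those regions. Members were thus selected on their mean signal and their position, so both are descriptions and were not tested. The mean signal is 1 value per region over the samples, normalized by the authors with DESeq2, so no value per sample and no spread between replicates could be given, and senescent and non-senescent cells were not compared.

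The table holds a comparison of the 2 states, and its mean is taken to cover all 4 non-senescent and 4 senescent H3K4me3 samples, from 1 line with the genotype label WT, each of 500000 cells, profiled by MINT-ChIP, in which barcoded samples are pooled before the antibody step. EndoC-βH3 cells carry CreER and removable transgenes for hTERT and SV40 large T antigen, and in the senescent group these were excised by 4-hydroxytamoxifen, given for 3 weeks. The 16 H3K27me3 and H3K9me3 samples of the series are not used here. Because both states enter each mean, a region with signal in only 1 of them cannot be told apart from a region with signal in both.

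Trimethylation of lysine 4 on histone H3 marks nucleosomes beside active and poised promoters. It is laid down by SET1 and MLL complexes, whose CXXC proteins bind unmethylated CpG dinucleotides, so that CpG islands carry much of the mark. Active enhancers usually carry more H3K4me1 than H3K4me3, and tRNA genes, which RNA polymerase III transcribes, also lie in H3K4me3-marked chromatin. In beta cells, enhancers of islet transcription factors often lie far from the genes, and the nearest gene named below is a position and not a target.

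Central stretches of 6 members are shown because they hold the base composition that divides the set. All are 200 bases of the plus strand of hg38, 5′ to 3′, in lower case with CpG in capitals. The region nearest OXGR1 (chr13:96846474-96846673) is among the strongest members whose sequence is not multi-copy. Those nearest TPTE (chr21:7927339-7927538), SHCBP1 (chr16:46389086-46389285) and WSB1 (chr17:26883310-26883509) are strong members made of tandem repeats. The stretches nearest FOXA2 (chr20:22490485-22490684) and NKX6-1 (chr4:84481485-84481684) belong to the 2 strongest members beside islet transcription factor genes.
OXGR1 region: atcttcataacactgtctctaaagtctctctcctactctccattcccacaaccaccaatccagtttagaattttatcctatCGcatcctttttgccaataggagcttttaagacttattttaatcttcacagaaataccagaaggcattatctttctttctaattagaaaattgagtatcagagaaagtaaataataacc
TPTE region: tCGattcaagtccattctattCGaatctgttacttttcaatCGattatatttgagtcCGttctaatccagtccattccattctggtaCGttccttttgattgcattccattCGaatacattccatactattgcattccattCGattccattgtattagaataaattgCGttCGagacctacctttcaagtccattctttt
SHCBP1 region: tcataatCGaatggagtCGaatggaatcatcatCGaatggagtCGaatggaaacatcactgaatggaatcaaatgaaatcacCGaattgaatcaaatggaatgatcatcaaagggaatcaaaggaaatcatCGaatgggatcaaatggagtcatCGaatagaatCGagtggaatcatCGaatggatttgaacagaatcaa
WSB1 region: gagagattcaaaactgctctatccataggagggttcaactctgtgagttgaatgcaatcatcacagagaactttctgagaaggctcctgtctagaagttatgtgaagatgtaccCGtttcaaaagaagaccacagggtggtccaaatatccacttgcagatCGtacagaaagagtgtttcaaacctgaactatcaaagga
FOXA2 region: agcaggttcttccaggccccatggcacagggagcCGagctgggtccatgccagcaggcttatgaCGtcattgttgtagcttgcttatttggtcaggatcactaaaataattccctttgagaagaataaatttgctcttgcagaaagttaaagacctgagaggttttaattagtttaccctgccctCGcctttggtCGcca
NKX6-1 region: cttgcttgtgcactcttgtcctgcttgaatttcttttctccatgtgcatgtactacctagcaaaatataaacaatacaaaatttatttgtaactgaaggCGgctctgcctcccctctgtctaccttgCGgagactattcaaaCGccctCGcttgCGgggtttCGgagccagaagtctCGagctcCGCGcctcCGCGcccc
The OXGR1 stretch held 1 CpG and the WSB1 stretch held 2. The TPTE and SHCBP1 stretches held 9 CpG each although their GC content was 35.5% and 37.0%. The word GGAAT, or ATTCC on the other strand, occurred 5 times in each of these 2 stretches. It is the unit of human satellites 2 and 3, the tandem repeats of pericentromeric heterochromatin. The FOXA2 stretch held 4 CpG, of which 1 lies in the cAMP response element word TGACGTCA, and the NKX6-1 stretch held 11 CpG at a GC content of 50.5%.

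The members were narrower and weaker than promoter regions. Their median width was 1553 bp (95% interval 1521 to 1584), with quartiles of 1180 and 2036 bp, and 13 of the 2717 were exactly 500 bp wide. Strong regions inside gene bodies and also more than 5 kb from every TSS (4767 regions) had a median width of 1701 bp, and strong regions over a protein-coding TSS (10498 regions) of 2729 bp. Weaker regions at the same kind of intergenic position (17524 regions, mean signal under the limit) had a median of 500 bp. The mean signal of the members had a median of 20.33 normalized counts, close to the 20.34 of the gene-body regions and below the 56.34 of the coding start regions. Per kilobase of region the medians were 13.79 (13.52 to 14.18) for members, 12.56 for gene-body regions, 20.48 for coding start regions and 4.82 for weaker intergenic regions. The difference between members and weaker regions follows from the rule, and the others are descriptions.

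The signal of the members was skewed toward its lower limit. A total of 1317 members had a mean signal under 20, 1170 from 20 to under 50, 174 from 50 to under 100, and 56 had 100 or more. Just above the limit stood regions nearest RETNLB (12.816), DIO3 (12.819) and CROT (12.829). The otherwise fitting regions just below it were nearest FERMT1 (12.7999), ROBO3 (12.7953) and RANBP6 (12.7952). Around the distance limit, the nearest members were 5.046, 5.047 and 5.061 kb from a TSS, and the regions that narrowly missed were 4.995, 4.976 and 4.975 kb away. One of those, nearest the ciliary protein gene TRAF3IP1, had a mean signal of 131.01. Across the 2717 members, which share all libraries, Spearman's rho of the signal was 0.392 with width, 0.225 with the CpG ratio, 0.0592 with GC content and -0.0284 with the distance to the nearest protein-coding TSS.

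**Figure D1:**
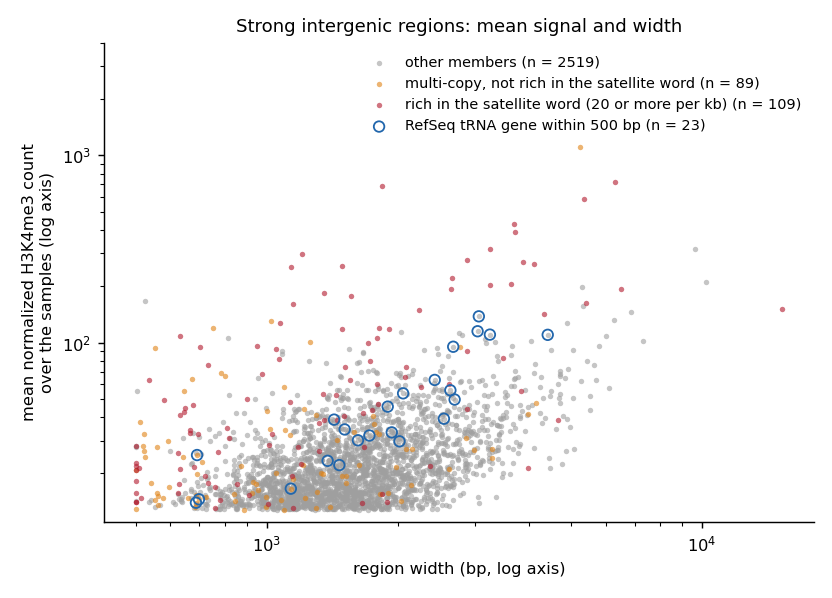
Mean normalized H3K4me3 count over the samples (log axis) against region width in bp (log axis) for each of the 2717 members. Red points are the 109 members with 20 or more GGAAT words per kb (the satellite word), orange points are other multi-copy members, and blue rings mark the 23 members within 500 bp of a RefSeq tRNA gene. Red and orange points hold 9 of the 10 highest values, and the ringed members run from 13.96 to 138.2.

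Most of the strongest members were made of satellite sequence. The highest mean signal, 1111.38, came from a region of 5240 bp at chr17:26880790-26886029, nearest WSB1 (a ubiquitin ligase adaptor) at 408.05 kb, and 212.1 counts per kb were measured there. Its bases equalled the bases 171 positions away at 56.5% of positions, the period of alpha satellite, the repeat of human centromeres. Its sequence occurred a median of 32 times in the assembly. The next was 719.24 at chr16:46386024-46392347, nearest SHCBP1 at 191.91 kb, with 46.6 GGAAT words per kb. The region at chr1:125179020-125180859 followed with 683.99, at 3991.9 kb from its nearest protein-coding TSS (SRGAP2C), and its signal per kb, 371.74, was the highest of any member. It held 48.4 GGAAT words per kb. The regions nearest EMB on chromosome 5 had 587.76 and 430.93, with 107 and 62.4 words per kb. Of the 10 members of highest signal, 8 held 20 or more GGAAT words per kb, 1 had the 171-base period, and the remaining one was nearest HTR7. The paper reports input controls for its H3K27ac and H3K4me1 peaks and states none for H3K4me3. No list of regions prone to artifacts was removed here. The part of background reads in these satellite signals was not tested, so a high count there is not by itself a measure of the mark.

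Satellite sequence set these members apart from the other members with almost no intermediate values. A total of 109 members (4.01%, 3.34 to 4.82) held 20 or more GGAAT words per kb, and 1 member lay between 10 and 40. The median over all members was 2.037 words per kb. None of the 4767 gene-body or 10498 coding start regions reached 20, against 82 of the 17524 weaker intergenic regions (0.468%). Intermediate values did occur among the weaker intergenic regions, of which 57 (0.325%) lay between 10 and 40. The limit of 20 was chosen after the values were seen. Of the 191 far intergenic regions with this many words, 57.1% (50.0 to 63.9) were strong, against 13.4% of all 20241. The 109 lay on 10 chromosomes, 24 of them on chromosome 1, 18 on chromosome 4 and 16 on chromosome 10. They had a median signal of 46.93 and held 13.7% of the signal of all members, and their median CpG ratio of 0.8232 came with a GC content of 40.34%. Of the 56 members with a signal of 100 or more, 31 were of this kind.

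Multi-copy sequence overlapped in part with these satellite members. A region was taken as multi-copy if the median of its sampled 24-base stretches occurred more than 2 times in hg38, and 183 members were (6.74%, 5.85 to 7.74). The share was 1.68% in gene-body regions, 0.305% in coding start regions and 7.08% in weaker intergenic regions. Among members it was 3.95% at a signal under 20, 6.24% from 20 to 50, 14.4% from 50 to 100 and 58.9% (45.9 to 70.8) at 100 or more. Of the 109 members rich in GGAAT, 94 were multi-copy, and the 15 others, such as the pair nearest TPTE on chromosome 21 with 71.3 and 70.9 words per kb, had at most 2 copies each. How reads that fit several places were treated is not given in the sources used here. The part of multiple mapping in these signals was not tested.

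Members also clustered where satellites lie. Joining members less than 5 kb apart gave 2534 groups, of which 2415 held 1 member, 119 held 2 or more (302 members) and 15 held 4 or more (86 members). In 14 of these 15 groups the strongest member held 49.9 to 116 GGAAT words per kb or, on chromosome 16, 45.1 and 46.6. The exception was a group of 4 nearest ASXL3, an additional sex combs family gene on chromosome 18, whose strongest member (37.46 at chr18:33803443-33806749) held 1.21 words per kb in single-copy sequence. The largest groups had 8 members each, one nearest CWH43 on chromosome 4 and one nearest DEFB115 on chromosome 20. The genes with the most members were CWH43 (21, of which 20 multi-copy), H3-7 (21, all multi-copy), TPTE (20, of which 10 multi-copy), DEFB115 (16, of which 11 multi-copy) and ZNF33B (14, all multi-copy). Those nearest TPTE were spread from 138.8 to 3262 kb from its TSS, and those nearest DEFB115 from 69.94 to 2414 kb.

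Outside satellites, the 3 strongest members that are not multi-copy were broad and poor in CpG, the next was a region of only 524 bp nearest FOXD4L5, and a broad region nearest OXGR1 followed. The strongest of them was 9609 bp wide, lay 189.95 kb from the start of HTR7, the gene of a serotonin receptor, and had a mean signal of 316.02 (32.89 per kb). Its GC content was 34.16% and its CpG ratio, the number of CpG over that expected from its C and G content, was 0.132. The strongest promoter region of HTR7 itself had a signal of 27.79, not scaled to width. A second region of this kind, 10197 bp wide at chr12:83804179-83814375, stood at 211.71 and 1045.6 kb from TMTC2, which codes for an O-mannosyltransferase of the endoplasmic reticulum. In a region 19.76 kb downstream of the TSS of RGS4, a regulator of G protein signalling, the signal was 197.17. Near OXGR1, the oxoglutarate receptor gene, it was 157.23 at chr13:96843905-96849243. The 4 broad regions had CpG ratios from 0.132 to 0.221 and none held a CpG-island-like window.

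The FOXD4L5 region and other strong members differed from these. FOXD4L5 is of the forkhead family, and its region had 167.78 (320.2 per kb), and 22.8% of its 12-base words recurred within it. The region nearest SGCD, the delta-sarcoglycan gene (146.23 at chr5:155726947-155733809), was island-like with a GC content of 51.06%. The member nearest SDK1, a cell adhesion gene (131.88 at chr7:4431772-4438030), lay over the start of a gene that RefSeq lists and GENCODE release 44 does not place there. Over all members, 16.7% (15.4 to 18.2) overlapped a RefSeq gene record, 13.0% a RefSeq lncRNA, and outside chromosome 8, where RefSeq starts were not used here, 61 (2.36%) lay over a RefSeq start. In the weaker intergenic regions the shares were 14.2% for a RefSeq gene record, 11.3% for a RefSeq lncRNA and 0.508% for a RefSeq start. Whether a region counts as intergenic thus depends on the annotation used.

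By base composition the members resembled strong gene-body regions more than promoters. Their median GC content was 41.84% (41.53 to 42.16), against 40.89% in gene-body regions, 50.68% in coding start regions and 38.96% in weaker intergenic regions. The median CpG ratio was 0.2496 (0.2403 to 0.257), against 0.2197, 0.5944 and 0.1718 in the same order. A CpG-island-like window, 500 bp with a GC content of at least 55% and a CpG ratio of at least 0.65, was present in 310 members (11.4%, 10.3 to 12.7), in 4.87% of gene-body regions, in 85.5% of coding start regions and in 1.35% of weaker intergenic regions. The order of the 4 sets was the same for these 3 measures, and the intervals of members and gene-body regions did not overlap for any of them. Without the 109 satellite members the median CpG ratio was 0.2398 and the island-like share 11.9%.

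**Figure D2:**
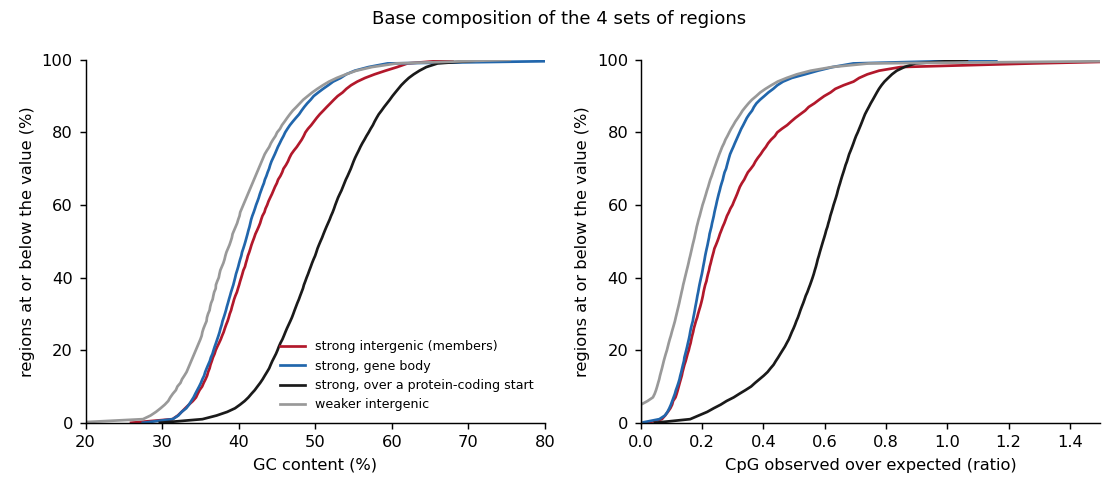
Cumulative share of regions (%) by GC content (%, left) and by the ratio of observed to expected CpG (right) for members (red), strong gene-body regions (blue), strong protein-coding start regions (black) and weaker intergenic regions (grey). The member line lies between the gene-body and coding start lines over most of each panel, with medians of 41.84% and 0.2496.

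Island-like windows were more frequent in strong than in weaker intergenic regions, but a wider region offers more windows to pass. Weaker regions were exactly 500 bp wide, with room for 1 window, in 54.0% of cases and members in 0.478%, and the part of width in the shares below was not tested. Of 547 far intergenic regions with such a window, 310 (56.7%, 52.5 to 60.8) were strong, against 2407 of 19694 without one (12.2%, 11.8 to 12.7). Island-like members had a median GC content of 54.14% and lay closer to genes, at a median of 34.6 kb from the nearest protein-coding TSS against 116 kb for the other members. They were 22.5% of the members within 20 kb of a protein-coding TSS, 16.2% from 20 to 100 kb, 5.46% from 100 to 500 kb and 2.22% beyond. The strongest with sequence that is not multi-copy, named after the values were seen, were nearest SGCD (146.23), STX11 (115.02), HAAO (110.36), GPD2 (110.07), ALG10B (109.53) and ARID1B (101.02). STX11 codes for a syntaxin, GPD2 for the mitochondrial glycerol-3-phosphate dehydrogenase and ARID1B for a subunit of the BAF chromatin remodelling complex.

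tRNA genes, which the GENCODE set used here does not count among its genes, lay within 500 bp of 3 of these 6. Of the others, the SGCD and ALG10B regions overlapped a RefSeq gene record, and the ALG10B region lay over a RefSeq start. A RefSeq tRNA gene lay within 500 bp of 23 members (0.847%, 0.565 to 1.27), of 0.168% of gene-body regions, of 0.419% of coding start regions and of 0.16% of weaker intergenic regions. Of the 51 far intergenic regions near a tRNA gene, 23 (45.1%, 32.3 to 58.6) were strong, and this was looked at after the values were seen. The strongest was the region 7.854 kb upstream of MDM4, the p53 inhibitor, with a mean signal of 138.17 (45.02 per kb) beside TRK-TTT3-1 and TRK-TTT3-2, which are lysine tRNA genes. The leucine tRNA gene TRL-TAA1-1 lay at the STX11 region, the isoleucine tRNA gene TRI-TAT2-1 at the HAAO region, and TRA-CGC3-1 and TRG-GCC2-2 at the GPD2 region. The 23 had a median signal of 38.79 (21.08 per kb) and a median width of 1936 bp, and 16 of them were island-like. On chromosome 6, 3 of them lay nearest the histone genes H2AC12 (23.38) and H2BC13 (30.08) and nearest TRIM27 (22.18), and the STX11 region lay elsewhere on that chromosome. A further 4 of the 23, separate regions on chromosome 1 nearest PPIAL4C, NBPF26, PPIAL4G and FAM72D, were multi-copy, with signals from 13.96 to 25.09.

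The nearest protein-coding gene was usually distant. The median distance to its TSS was 96.83 kb (88.94 to 106.9), with quartiles of 32.32 and 279 kb, against 32.21 kb for gene-body regions and 126.5 kb for weaker intergenic regions. A total of 426 members lay within 20 kb, 952 from 20 to 100 kb, 934 from 100 to 500 kb and 405 beyond 500 kb. The farthest were 3 regions on the short arm of chromosome 22, at 4492.5, 4473.6 and 4039.5 kb from OR11H1, an olfactory receptor gene. The nearest TSS of any type was closer, at a median of 26.52 kb. Members lay upstream of the nearest protein-coding TSS in 52.0% (50.1 to 53.8) of cases, against 53.5% of weaker intergenic and 40.3% of gene-body regions. Within 20 kb the share of members was 62.7% (58.0 to 67.1), and it was not computed for the other sets. A gene body runs downstream from its TSS, and the rule leaves gene bodies out of the intergenic sets. An excess of upstream positions close to genes, and the lower share in gene-body regions, are thus shaped by the rule and are no trait of the members. The share of far intergenic regions that were strong was 14.8% within 20 kb of a protein-coding TSS, 15.1% from 20 to 100 kb, 12.6% from 100 to 500 kb and 11.2% beyond. The first 2 of these differed by less than their intervals, and the first and the last did not overlap.

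Among members, composition changed with distance to the nearest protein-coding TSS. Median GC content was 46.16% (45.42 to 47.3) for members within 20 kb, 43.95% from 20 to 100 kb, 40.37% from 100 to 500 kb and 38.35% (37.59 to 39.06) beyond. Spearman's rho between GC content and distance was -0.399 over the 2717 members. It cannot be set against the rho of signal with distance, because the rule cut the range of the signal. GC content by distance was not computed for the other sets, so a change particular to members is not shown. Multi-copy members were 2.11% of those within 20 kb and 22.5% of those beyond 500 kb. The nearest gene had a strong promoter region of its own, within 2 kb of a TSS, for 76.7% (75.1 to 78.3) of members, 87.7% of gene-body regions and 71.1% of weaker intergenic regions. Without the satellite members the share was 78.6%.

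**Figure D3:**
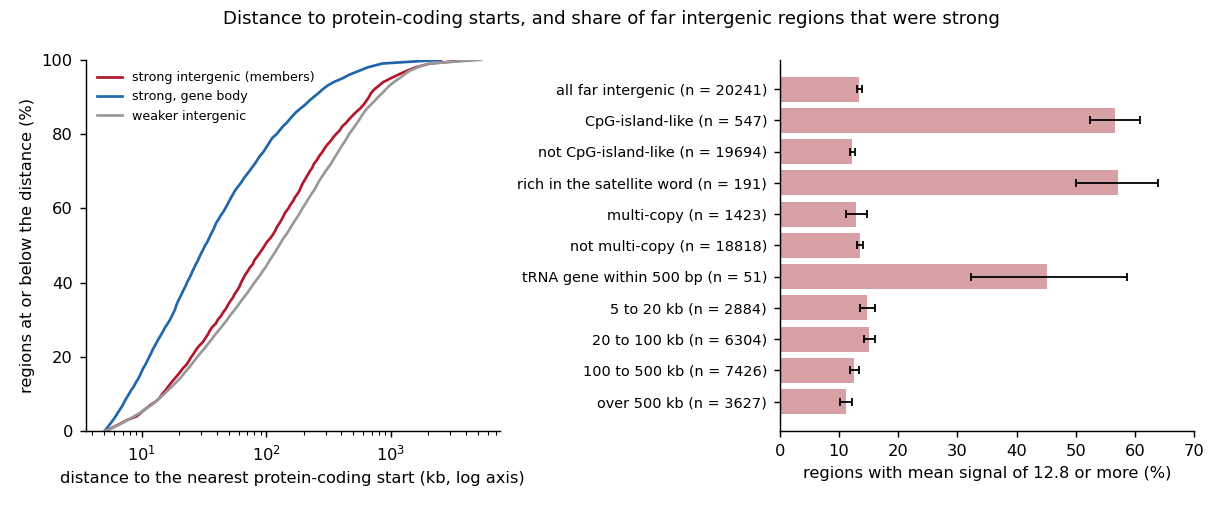
Left, cumulative share of regions (%) by distance to the nearest protein-coding start in kb (log axis) for members (red), strong gene-body regions (blue) and weaker intergenic regions (grey). Right, percent of far intergenic regions that are strong in each class, with 95% Wilson intervals. The island-like, satellite-word and tRNA classes stand at 56.7%, 57.1% and 45.1%, and the 4 distance classes between 11.2% and 15.1%.

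A total of 1619 protein-coding genes were nearest to at least 1 member. Of these, 1104 had 1 member and 73 had 5 or more. Apart from the genes beside satellites, long series lay nearest ITGA1, an integrin subunit gene (12 members, signal 13.78 to 127.9), PSAT1, of serine synthesis (11, 14.45 to 43.71), DHX35 and PCDH9 (10 each), and C4orf33 (9). None of the members of these 5 genes was multi-copy. They also had many weaker regions, from 31 nearest PSAT1 to 55 nearest PCDH9.

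Islet transcription factors were the nearest gene of 35 members (1.29%), against 0.839% of gene-body regions, 0.248% of coding start regions and 0.913% of weaker intergenic regions. They came from 15 of the 35 genes listed, of which those named here are a part. FOXA2, a pioneer factor of endoderm, had 6 members between 46.46 and 99.77 kb from its TSS, 5 of them downstream. The strongest was 5040 bp wide at chr20:22488065-22493104, with 91.16 (18.09 per kb), and the others ran from 13.62 to 34.22. No member of FOXA2 was island-like or multi-copy.

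The other islet regulators named here had 1 to 3 members each. NKX6-1, a beta cell identity factor, had a member 14.469 kb away with 68.55 (38.21 per kb), island-like with a CpG ratio of 0.801, and a second at 62.298 kb with 18.84. INSM1, a zinc finger factor of endocrine cells, had an island-like member at 18.119 kb with 46.00. ST18, a zinc finger factor, had 3 members, the nearest 5.767 kb upstream with 66.10 (44.81 per kb). RFX6, needed for islet development, had 3 members from 62.892 to 73.081 kb with 41.42, 41.35 and 21.24, all downstream. MNX1 had 2, at 7.62 and 16.828 kb, with 29.07 and 13.28. PDX1, the master factor of pancreas and beta cells, had 1 at 9.494 kb with 15.83, and ISL1 1 at 136.81 kb with 13.30. HHEX, SIX2, SIX3, TCF7L2 and SOX9 had 1 each, and GLIS3 had 2, with signals from 12.92 to 19.23. Of the 20 listed genes without a member nothing follows, since a region in a gene body or within 5 kb of a TSS could not be a member.

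Genes of beta cell function were nearest to 16 members (0.589%, from 11 of 45 genes), against 1.05% of gene-body regions and 0.462% of weaker intergenic regions. SLC30A8, the zinc transporter of insulin granules, had 3 members 66.616 to 109.0 kb beyond its start, with 68.96, 63.61 and 16.50. Those with 68.96 and 63.61 overlapped a RefSeq gene record. SLC17A6, a vesicular glutamate transporter, had an island-like member at 72.503 kb with 55.35, where its own strongest promoter region had 23.94. UCN3, a peptide of mature beta cells, had 1 with 27.27 at 49.279 kb. CHGA (chromogranin A) had 1 with 23.54 at 5.51 kb and GJD2, the connexin of beta cell coupling, 1 with 22.38 at 15.991 kb. The other 9 members, nearest SYT4, SCG2, GIPR, CACNA1A, PCSK2 and DLK1, had 13.88 to 20.83.

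**Figure D4:**
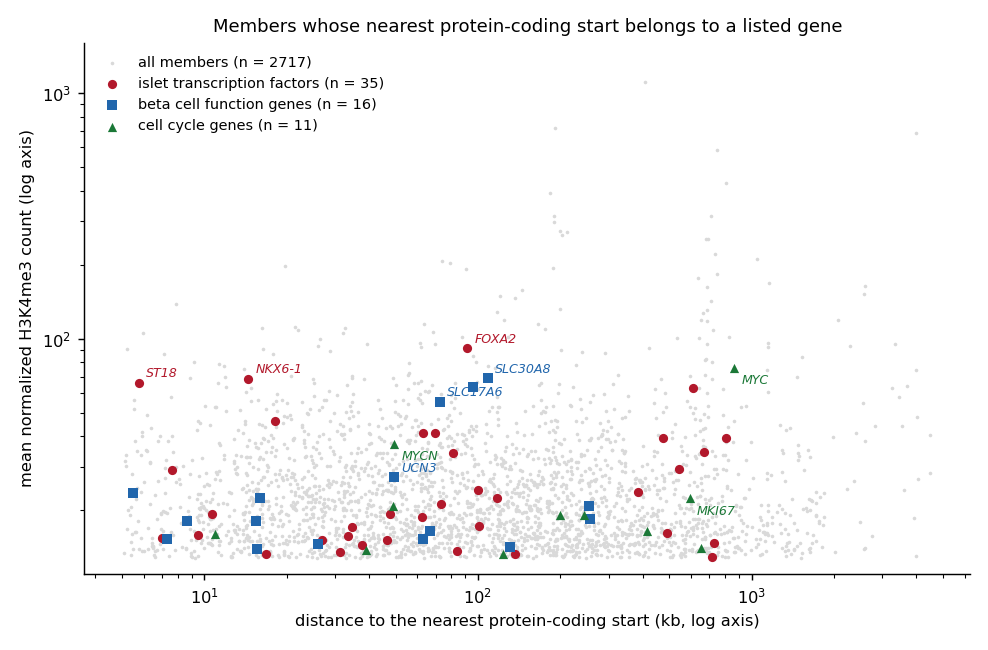
Mean normalized H3K4me3 count (log axis) against distance to the nearest protein-coding start in kb (log axis). Grey points are all 2717 members, red circles the 35 nearest an islet transcription factor gene, blue squares the 16 nearest a beta cell function gene and green triangles the 11 nearest a cell cycle gene, with up to 3 genes per list named at their strongest member. The listed members spread over the whole range of distances, and the highest of them is the FOXA2 member at 91.16.

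Cell cycle genes were nearest to 11 members (0.405%, from 6 of 53 genes), against 0.168% of gene-body regions, 0.448% of coding start regions and 0.308% of weaker intergenic regions. MYC had 2 members, at 863.15 and 655.36 kb with 76.09 and 14.00, and MYCN had 4 from 49.115 to 244.32 kb with 19.11 to 37.37. MKI67, the proliferation marker, had 2 at 414.36 and 593.58 kb with 16.41 and 22.34, and the one with 22.34 overlapped a RefSeq gene record. CDKN2C and CDKN2B, inhibitors of cyclin-dependent kinases, had 1 each with 15.96 and 13.28, and E2F7, a repressor of the E2F family, 1 with 13.80. Developmental transcription factor families were nearest to 67 members (2.47%, against 1.24% of gene-body, 0.572% of coding start and 2.19% of weaker intergenic regions). ZNF genes were nearest to 65 (2.39%, against 2.83%, 3.89% and 4.07%). Their strongest were satellite regions nearest ZNF33B (220.19 and 142.54), followed by ZNF281 (114.64), ZNF516 (108.75), ZNF648 (99.97) and ZNF778 (90.63). Among the developmental families, after 2 regions nearest FOXD4L5 and FOXD4L4, the order was FOXA2, SOX21 (69.32), NKX6-1 and IRX2 (51.59).

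Short sequence words were counted on both strands in the central 300 bases of each region. A GC box (GGGCGG) was present in 10.4% of members, 5.98% of gene-body regions, 37.9% of coding start regions and 2.96% of weaker intergenic regions. It was present in 43.9% of the island-like members and in 6.11% of the others. The TATA word TATAAA ran the other way, in 20.2% of members, 23.9%, 10.2% and 26.8%, as did CCAAT, in 34.4%, 34.5%, 27.6% and 38.7%. The forkhead word TGTTTAC was in 7.03% of members and 8.52% of gene-body regions, against 3.59% at coding starts and 7.2% in weaker regions. The AP-1 word TGACTCA was in 4.31%, 5.77%, 2.96% and 5.07%, and the E-box CACGTG in 3.42%, 3.17%, 5.37% and 2.73%. The ETS word CCGGAAG was in 1.95%, 1.15%, 7.04% and 0.902%, and the cAMP response element TGACGTCA in 0.294%, 0.168%, 0.714% and 0.097%. The CTCF core consensus was found in 1.07% of members, 0.378% of gene-body regions, 0.286% of coding start regions and 0.531% of weaker regions, and the NRF1 consensus in 0.258%, 0.105%, 0.867% and 0.0342%. Base composition also differs between the sets, its part in these shares was not tested, and a match is not a bound site.

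Members were unevenly spread over the chromosomes. Per megabase of sequence that was outside gene bodies and more than 5 kb from every TSS, the 22 autosomes held 3.01 members. Chromosome 20 had the most, 5.06 (119 members in 23.5 Mb), followed by chromosomes 13 (4.02), 17 (3.94) and 1 (3.91). The lowest were chromosomes 4 (1.85) and 14 (1.98). Without multi-copy members chromosome 20 had 4.51 and chromosome 13 3.97, whereas chromosome 17 fell to 3.2, chromosome 1 to 3.41 and chromosome 4 to 1.52. Chromosome 20 was also dense in weaker intergenic regions, with 30.2 per Mb against 19.4 over all autosomes, and so was chromosome 19 with 31.6. Of its far intergenic regions chromosome 19 had the smallest strong share, 7.84%, and chromosome 17 the largest, 18.5%. The members nearest FOXA2, INSM1, DHX35 and DEFB115 lie on chromosome 20. The copy number of each chromosome in these cells was not measured here.

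**Figure D5:**
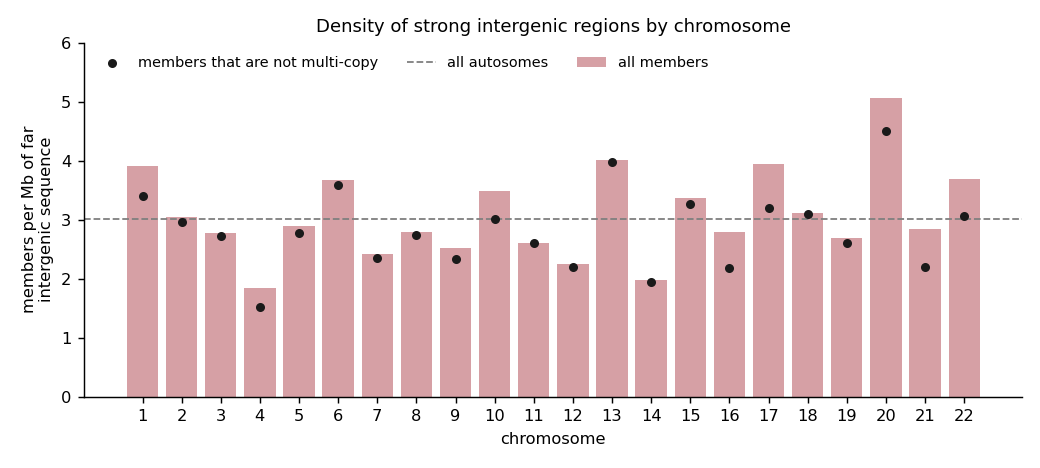
Members per Mb of far intergenic sequence on each autosome. Bars count all members, black points those that are not multi-copy, and the dashed line is the value over all autosomes, 3.01. Chromosome 20 stands highest at 5.06, and its point stands at 4.51.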

How the data were processed

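MINT-ChIP for H3K4me3 was performed by the authors on MNase-digested chromatin of EndoC-βH3 cells in both states. The submitters' processing notes name bcl2fastq, Bowtie, SAMtools, HOMER, SICER, deepTools and DESeq2 with hg38. How regions were merged across samples and how reads with several matches were counted is not given in the sources used here. The deposited table gives for each region the mean signal, which is an average of read counts after the authors' DESeq2 normalization. The columns of the authors' comparison of senescent with non-senescent cells (fold change, its error, test statistic and p-values) were not used. The table holds no value per sample, so depth per sample is unknown, replicates could not be compared, and no test was run.

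Regions were placed against GENCODE release 44 (gene bodies and TSSs of all types). RefSeq records and tRNA genes came from a GRCh38 table, without starts on chromosome 8. Multi-copy sequence was judged from 60 stretches of 24 bases per region, counted on both strands over 194 hg38 sequences, as a median above 2. Island-like windows were 500 bp, moved by 10 bp. Tandem periods were sought from 20 to 599 bases. Gene promoters reached 2 kb from a TSS, and tRNA genes counted within 500 bp. Medians carry distribution-free 95% binomial intervals and shares 95% Wilson intervals, which treat regions as separate draws and do not cover replicate error. The members and gene lists were chosen with earlier results of these data known. Named regions were those of highest signal over all members, among members that are not multi-copy and for each gene list, those nearest the limits, the farthest, the widest, the strongest of each group of 4 or more and genes with the most members. The satellite word, tRNA, RefSeq start and island-like examples, and the remaining members of the islet, beta cell function and cell cycle lists, were named after the values were seen. Python 3.11.15 with numpy 2.4.6, scipy 1.17.1, pandas 2.3.3, numba 0.67.0, pysam 0.24.0 and matplotlib 3.10.9 was used. Sequence measures were checked on made-up sequences with known content. Soft-masked repeats were not measured, because the genome sequence used carries no masking. Some regions and sequences are not reported here.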

Additional observations from a re-analysis of the deposited data

How the results depend on the processing

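Of the values recomputed under other settings, 35 moved and 62 did not, and none of them has a test. A median or share moved if it left the 95% interval reported for it, and the number of members if it changed by more than 1.5 times. With protein-coding genes alone as the annotation there were 5462 members, with a GC content of 43.0%, a CpG ratio of 0.278, an island-like share of 20.1% and a distance of 83.9 kb. With protein-coding and lncRNA genes these were 42.2% GC, 13.3% island-like and 87.2 kb. At a mean signal of 25 or more there were 964 members (42.6% GC, CpG ratio 0.303, 11.6% multi-copy, 16.8% island-like, 86.4 kb, 72.7% near a gene with a strong promoter region). At 50 or more there were 230 (CpG ratio 0.397, 25.2% multi-copy, 19.6% island-like, 111 kb, 65.2% near such a gene). With the upper quartile of signal per kb, 10.5, as the limit, GC content was 42.4%, the CpG ratio 0.282 and the multi-copy share 9.68%. Beyond 10 kb from every TSS, GC content was 41.4%, the island-like share 9.51% and the distance 120 kb, and beyond 2 kb the distance was 84.0 kb. Without multi-copy members the CpG ratio was 0.238, the distance 88.1 kb and the share near a gene with a strong promoter region 79.3%. Without GGAAT-rich members, an alternative chosen after seeing the data, the CpG ratio was 0.24, the multi-copy share 3.41% and the promoter share 78.6%. Joining neighbours within 5 kb gave a multi-copy share of 4.26%. The cause of these shifts was not tested beyond what each setting adds or removes. No paired analysis was possible because the table holds no value per sample, and for the same reason no replicate could be left out. The share of soft-masked bases was not run.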
